A study of Mus musculus with 7 samples.

Results

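Basal keratinocytes are the cells that the authors' annotation of the keratinocyte data names Basal, and all cells with that name in both keratinocyte libraries were taken. They number 3396 of 5426 keratinocytes, and the whole series holds 18106 cells in 7 libraries. Of the Basal cells, 1684 came from the library labelled BMT (bone marrow transplantation) and 1712 from the library whose label adds T-cells to the transplant (BMT + T cells). The other keratinocytes carry 4 cluster names, Differentiated, Follicular, KC_Four and KC_Five.

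The study followed how monocytes replace the Langerhans cells of the epidermis after transplantation, and keratinocytes were profiled as the surrounding tissue. Male CD45.2 C57BL/6 hosts were irradiated and received bone marrow of female CD45.1 C57BL/6 donors, and the epidermis of the ear was taken 3 weeks later. Epidermal sheets were separated with dispase, keratinocytes were sorted as CD45-negative cells, and RNA was captured in droplets with unique molecular identifiers (UMIs), which count each captured molecule once. By the study's methods BMT + T cells means that CD4 T cells and Matahari CD8 T cells, which carry a transgenic receptor for the male antigen HY, were given with the marrow. The design text of the series describes these T cells for every mouse, so the groups are called here by their labels only. The ages of the mice are not given in the sources used here. The study's figure legend describes the keratinocyte data as cells of several pooled mice, all given BMT + T cells, where the labels name a BMT library as well. Each label has 1 keratinocyte library. A difference between the labels therefore has no replicate check and no test, and 95% intervals cover counting error only.

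The epidermis renews itself from the basal layer. Its cells express the keratins Krt5 and Krt14, hold on to the basement membrane through integrin α6β4 and collagen XVII, divide, and give rise to daughters that move up and switch to Krt1 and Krt10. Basal cells also carry Notch ligands such as Jag2, secrete Wnt proteins and growth factors, and are the cells through which immune cells enter the epidermis. Under interferon, keratinocytes raise antigen presentation and can display MHC class II, and after wounding they switch on the keratins Krt6 and Krt16.

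The keratinocyte table was of even depth between the labels. Basal cells had medians of 8053 UMIs and 2640 genes in the BMT library and 8223.5 UMIs and 2665 genes in the BMT + T cells library, with 14845695 and 15202995 Basal UMIs in all. Their mitochondrial share had medians of 2.32% and 2.22%, and 1 Basal cell was above 20%. The libraries shared 2 cell barcodes, 1 of them in Basal cells.

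The name Basal was checked against its markers, as UMIs per 10000 UMIs of the pooled cells (CP10K). Krt14 (chromosome 11, 100203162 to 100207510, GRCm38.p6) was at 396 CP10K in Basal cells of the BMT library and at 379 in those of the BMT + T cells library, against 109 and 108 in Differentiated cells. The second basal keratin, Krt5 (chromosome 15, 101707069 to 101712905), was at 179 and 176, against 39.8 and 50.4. Jag2 (chromosome 12, 112907803 to 112929812), a ligand of Notch receptors, was at 1.36 and 1.61, against 0.104 and 0.17. All 3 were highest in Basal cells in both libraries, but the cycling clusters KC_Four and KC_Five were close for the keratins, at 310 to 351 for Krt14 and 146 to 162 for Krt5. The anchoring genes followed the same order, with Itga6 at 3.40 and 3.69, Itgb4 at 2.19 and 2.24, and Col17a1 at 10.5 and 11.6 in Basal cells, each above all 4 other clusters.

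Markers of the other classes were low in Basal cells. Krt10, made by cells that have left the basal layer, was at 6.19 and 8.92 CP10K, against 154 and 143 in Differentiated cells. Krt79, a marker of the upper hair follicle, was at 0.0249 and 0.00921, against 26.7 and 25 in Follicular cells, and Mki67, made by dividing cells, at 0.658 and 0.508, against 4.59 to 6.54 in KC_Four and KC_Five. After each cell was thinned to 2500 UMIs, 29.7% and 32.7% of Basal cells had a UMI of Jag2 (61.9% and 66.9% before thinning). In Differentiated cells, which had more UMIs a cell (medians 10113 and 10403), 2.23% and 4.82% did (8.32% and 14.2% before thinning). The markers go with the name. Krt79 had a UMI in 0.9501% and 0.292% of thinned Basal cells and in 29.5% and 29.3% of thinned Follicular cells, at like median depths (8070 and 7913 UMIs in Follicular cells).

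**Figure D1:**
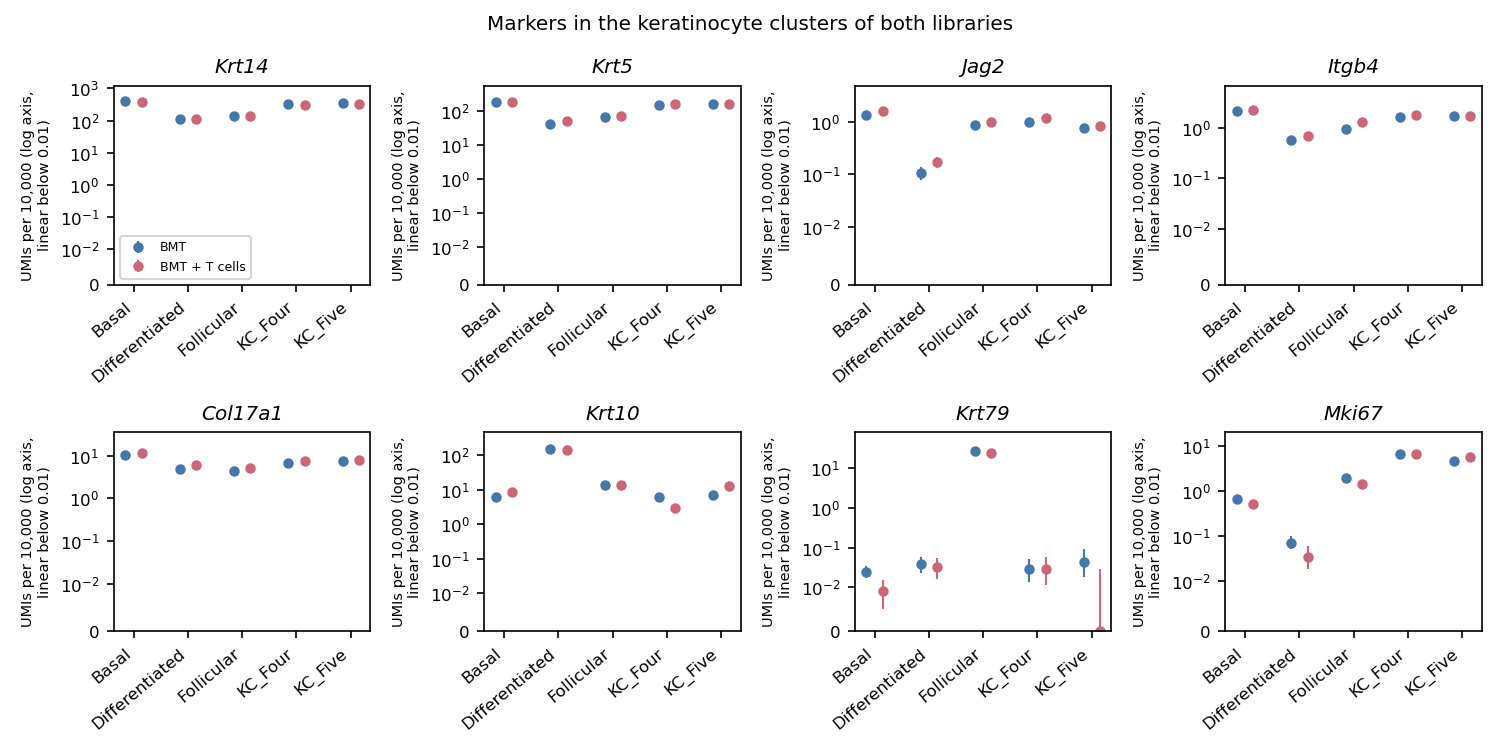
Levels of 8 marker genes (CP10K, log axis, linear below 0.01) in the 5 keratinocyte clusters of the BMT (blue) and BMT + T cells (red) libraries. Points are pooled levels, bars 95% Poisson intervals of the counts. Krt14, Krt5, Jag2, Itgb4 and Col17a1 stand highest in Basal cells, Krt10 in Differentiated, Krt79 in Follicular and Mki67 in KC_Four and KC_Five cells.

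Basal cells made up 59.4% of the BMT library (interval 57.5 to 61.2, of 2836 cells) and 66.1% of the BMT + T cells library (64.2 to 67.9, of 2590 cells). The intervals do not overlap. Dispase separation and the CD45-negative sort can set such shares, and mice were not counted separately. The phase that the authors scored was G1 for 61.9% and 68.5% of Basal cells, S for 31.1% and 26.4%, and G2M for 7.01% and 5.08%. Between the libraries the G1 share had intervals of 59.5 to 64.2 and 66.3 to 70.7, which do not overlap and cover counting error only. In KC_Four and KC_Five the G2M phase held 73.3% to 99.1% of cells.

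Few genes set Basal cells apart from all other keratinocytes. Clusters were made from these same values, so the comparison describes the annotation and is no test. Of 11686 genes with at least 50 keratinocyte UMIs, 2 (0.0171%) were over 2-fold higher (log2 above 1) in Basal cells than in the highest other cluster in both libraries, Ngfr and S100a8. Only Fdft1 (0.00856%) was over 2-fold lower than in every other cluster. Ngfr (chromosome 11, 95568818 to 95587698), the low-affinity receptor of nerve growth factor, was at 0.163 and 0.178 CP10K in Basal cells and at most 0.0503 elsewhere, a log2 difference of at least 1.09. S100a8, an alarmin of neutrophils and stressed keratinocytes, passed through 1 cell: 809 of its 845 Basal UMIs in the BMT library lay there. Without the highest cell its log2 difference was -2.02.

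Singly, the clusters stood at unlike distances from Basal cells. Over Differentiated cells, 380 genes (3.25%) were past the 2-fold line in both libraries and 257 (2.2%) under it. Against Follicular cells the counts were 147 (1.26%) higher and 525 (4.49%) lower. Against KC_Four they were 78 (0.667%) and 404 (3.46%), and against KC_Five 79 (0.676%) and 216 (1.85%). The median over all genes, Basal minus cluster, ranged from -0.07 to 0.11, so the scale itself moved little.

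The next genes in order lay just below the 2-fold line. Ctsl, a lysosomal protease, was at 3.98 and 3.65 CP10K in Basal cells and at most 1.99 elsewhere (log2 difference at least 0.99). Il1r2, the decoy receptor that binds interleukin-1 without signalling, was at 2.15 and 2.25, against at most 1.15 in KC_Four and KC_Five and at most 0.177 in Differentiated and Follicular cells. Both were therefore near 2-fold above the next cluster in each library.

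After these came Slc6a4 (the serotonin transporter, 0.267 and 0.314 CP10K), Adamtsl5 (0.372 and 0.43), Lama3 (the α3 chain of laminin-332, 0.611 and 0.66) and Coq8a (0.881 and 0.765). Their log2 differences over the highest other cluster were at least 0.93, 0.89, 0.87 and 0.84. Phldb2 (0.79), Gm5127 (0.75), the fructose transporter Slc2a5 (0.74) and Sh3d21 (0.71) complete the 12 highest.

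At the other end stood Fdft1, squalene synthase, the first enzyme committed to sterols. It was at 0.426 and 0.326 CP10K in Basal cells and at 0.837 to 1.88 in the other clusters, a log2 difference of at most -1.07 from the lowest of them. Sun2 (-0.78), Rassf3 (-0.68), Jpt1 (-0.56), Snrnp25 (-0.52), Rdh11 (-0.47) and Cdr2 (-0.46) also stood under every other cluster. Counted at any size of difference, 257 genes (2.2%) were below and 838 (7.17%) above every other cluster in both libraries.

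Most anchoring genes were higher in Basal cells than in the other clusters. Of 23 basal keratin and basement membrane genes, 21 had enough UMIs, and 16 of these were above every other cluster in both libraries (7.17% of all genes were), though mostly by less than 2-fold. Over Differentiated cells 16 passed the 2-fold line (3.25% of all genes) and none lay under it (2.2%). The medians of the 21 were 1.45 and 1.51, beside 0.11 and 0.10 over all genes. Over Follicular cells 5 passed (1.26%) and 1 lay under (4.49%), and over each cycling cluster 1 passed (0.667% and 0.676%). Basal cells therefore differed from the cycling clusters mainly in other genes than these. Of 21 cell cycle genes, 16 were over 2-fold lower than in KC_Four (3.46% of all genes) and 10 than in KC_Five (1.85%). In turn 2 and 1 were higher (0.667% and 0.676%).

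Genes of later layers and of the follicle were low, as the markers showed. Of 22 suprabasal differentiation genes, 18 had enough UMIs. Of these, 12 were over 2-fold lower in Basal than in Differentiated cells (2.2% of all genes) and 11 than in Follicular cells (4.49%). Krtdap, a secreted protein of differentiating keratinocytes, was at 12.3 and 12.8 CP10K against 134 and 126 in Differentiated cells, and Sbsn at 0.129 and 0.179 against 3.38 and 3.12. Of 17 upper hair follicle and sebaceous gland genes (of 19), 14 were over 2-fold lower than in Follicular cells (4.49% of all genes).

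Signalling genes differed mostly from Differentiated cells. In the Notch list 18 of 26 genes were above the count minimum. Of these, 3 were over 2-fold higher in Basal than in Differentiated cells (3.25% of all genes) and 2 lower (2.2%). The ligand Jag2 was among the higher. Jag1, a second Notch ligand, was at 0.821 and 0.857 CP10K in Basal cells and at 1.43 and 1.68 in Follicular cells. The receptor Notch2 was lower in Basal cells, at 0.279 and 0.334 against 0.905 and 0.831 in Differentiated cells, and Notch1 was alike, at 0.438 and 0.503 against 0.443 and 0.525.

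Wnt genes leaned towards Basal cells. Of 20 genes (of 21), 7 were over 2-fold higher than in Differentiated cells (3.25% of all genes) and 4 than in Follicular cells (1.26%). None was lower, beside 2.2% and 4.49% of all genes. Wnt10a, a ligand of epidermal appendages, was at 1.33 and 1.28 CP10K, against 0.309 and 0.421 in Differentiated cells. Lgr6, a receptor for R-spondins and a stem cell marker of the follicle and epidermis, was at 0.523 and 0.531, against 0.0283 and 0.024. Wnt4 was not highest in Basal cells, at 4.83 and 4.86 beside 5.89 and 5.99 in KC_Five.

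Of 13 growth factor genes (of 15), 1 was over 2-fold higher than in Differentiated cells (3.25% of all genes). Against Follicular cells 2 were higher (1.26%) and 1 lower (4.49%). The keratinocyte growth factor receptor Fgfr2 was at 2.27 and 2.39 CP10K, above all other clusters. Of 18 Langerhans cell niche genes (of 25), 5 were over 2-fold higher (3.25% of all genes) and 1 lower (2.2%) than in Differentiated cells. Against Follicular cells 2 were higher (1.26%) and 2 lower (4.49%), and 2 were higher than in KC_Four (0.667%). Il34, the cytokine Langerhans cells live on, was at 0.919 and 1.01 in Basal cells and at 1.89 and 2.12 in Differentiated cells. Cxcl14, a constitutive epithelial chemokine, was at 6.42 and 3.93 in Basal and 1.04 and 0.426 in Differentiated cells.

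Some transcription factors of later layers were lower in Basal than in Differentiated cells. Of 20 epidermal transcription factors (of 21), none was over 2-fold higher than in Differentiated cells (3.25% of all genes were) and 4 were lower (2.2%), while 1 was higher (1.26%) and 2 lower (4.49%) than in Follicular cells. Grhl3, a factor of barrier formation, was at 0.0438 and 0.0579 CP10K in Basal cells, against 0.394 and 0.328 in Differentiated cells. Foxn1, a factor of hair and early differentiation, was at 0.0148 and 0.0197, against 0.234 and 0.237, and Grhl1 and Ovol1 were the others. Trp63, the master regulator of stratified epithelia, was at 2.13 and 2.15 CP10K in Basal cells and at 1.33 to 1.84 elsewhere. All 18 junction genes were counted. Over 2-fold, 1 was higher (3.25% of all genes) and 3 lower (2.2%) than in Differentiated cells. Against Follicular cells 0 were higher (1.26%) and 2 lower (4.49%). The lower pair were the tight junction genes Cldn1, at 0.38 and 0.364 against 1.59 and 1.46 in Follicular cells, and Cldn4, at 0.0101 and 0.00987 against 0.506 and 0.177.

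Basal cells were not uniform. Over cells thinned to 2500 UMIs, 675 genes had a mean of at least 0.5 UMI in both libraries, and their median Fano factor (variance over mean, 1 for pure counting noise) was 1.11 and 1.12. Krt15, a keratin of basal and bulge cells, was the most variable by the lower of both libraries, at 22.04 and 19.4. The differentiation genes Krt10 (10.9 and 13.3), Krtdap (8.61 and 9.91), Krt2 (6.71 and 12.4) and Ly6d (6.85 and 6.40) were also among the 12 most variable. So were Krt14 itself (9.86 and 10.6), S100a6 (7.93 and 8.69) and Malat1 (14.8 and 19.6). CT010467.1 (12.9 and 21.7) and the mitochondrial genes mt-Rnr2 (11.6 and 14.6), mt-Cytb (8.25 and 11.03) and mt-Rnr1 (4.39 and 5.89) complete the list.

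The keratins were not spread together. Across the 1684 and 1712 thinned Basal cells, which share a library and a fixed depth within each set, the Spearman coefficient of Krt14 with Krt5 was 0.46 and 0.49. With Krt15 it was -0.37 and -0.28. Krt10 had a UMI in 50.7% and 51.0% of thinned Basal cells (79.7% and 80.3% before thinning). In Follicular, KC_Four and KC_Five cells the thinned share was 38.0% to 53.4%, a like level. Whether single Krt10 UMIs in Basal cells were background was not tested. Of the Krt10 UMIs in Basal cells, 42.3% and 47.1% lay in the 5% of cells with the most. Its coefficient with Krtdap was 0.23 and 0.26, and with Krt14 -0.05 and -0.13. A small part of the Basal cells thus held much of their Krt10.

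Between the labels, the differences over 2-fold in Basal cells lay mostly in one direction, while smaller ones went both ways. Of 10614 genes with at least 50 Basal UMIs, 59 (0.556%) were over 2-fold higher in the BMT + T cells library and 6 (0.0565%) over 2-fold lower, on log2(CP10K + 0.05). Poisson intervals of both levels were apart for all 59 and all 6 of them, and for 1615 genes in all, 710 higher (6.69%) and 905 lower (8.53%). At any size, 51.9% of genes were above 0 and 48.1% below. The median difference over all genes was 0.01 and 95% of genes lay between -0.29 and 0.34. Of the 59 genes, 34 are on the lists of MHC class I, MHC class II, antiviral, interferon-gamma or injury genes. These lists had 17, 6, 18, 11 and 12 tested members among the 10614 genes. They were chosen with earlier results of these data known.

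**Figure D2:**
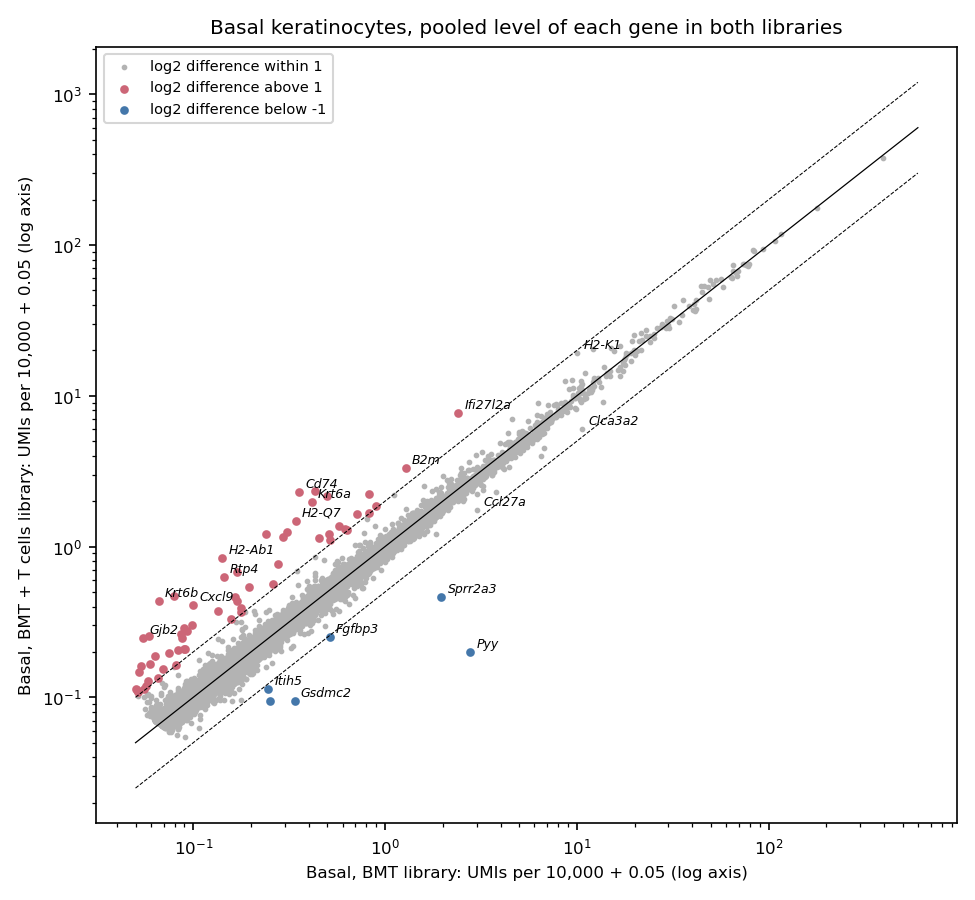
Pooled level of each of 10614 genes in Basal cells of the BMT (x) and BMT + T cells (y) libraries, CP10K + 0.05 on log axes. The solid line marks equal levels, dashed lines a 2-fold difference. The 59 red genes lie above and the 6 blue genes below, most of the red ones at low levels, with Ifi27l2a (2.35 and 7.61 CP10K) among the red and Pyy (2.72 and 0.149) among the blue.

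Genes of MHC class I presentation, the path that shows peptides to CD8 T cells, were all higher. Each of the 17 listed genes was tested and each was above 0 with intervals apart, 7 past the 2-fold line (backgrounds 51.9%, 6.69% and 0.556%), with a median log2 difference of 0.92 beside 0.01 over all genes. H2-K1, a classical heavy chain (chromosome 17, 33996012 to 34000619), was at 10.0 CP10K in the BMT and 19.0 in the BMT + T cells library, 1.90-fold higher (1.86 to 1.94). H2-D1, the other classical heavy chain, was at 12.02 and 20.3. B2m, the light chain of every class I molecule (chromosome 2, 122147687 to 122153082), was at 1.23 and 3.25, 2.64-fold higher (2.504 to 2.79).

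The machinery around the complex was higher too. Tap1, the peptide transporter, was at 0.756 and 1.46 CP10K, the immunoproteasome subunits Psmb8 at 0.523 and 1.31 and Psmb9 at 0.775 and 1.62, and Psme1, the proteasome activator, at 2.54 and 3.01. The non-classical H2-Q7 had the largest difference of the list, at 0.292 and 1.43 (log2 2.11), with H2-Q6 at 0.0485 and 0.254. H2-Q6 and H2-Q7 are close in sequence, so how reads were split between them is uncertain. H2-K1 was spread over nearly all Basal cells: 79.4% and 97.1% had a UMI after thinning (94.1% and 99.7% before). B2m had one in 24.9% and 52.9%. No cluster is known to lack these genes, so no background share can be given for them.

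Interferon-stimulated antiviral genes were higher in the same way. Of 22 genes, 18 had enough UMIs, with a median of 1.12. All 18 were above 0, 17 had intervals apart and 11 passed the 2-fold line (backgrounds 51.9%, 6.69% and 0.556%). Ifi27l2a, an interferon-induced mitochondrial protein, had the most UMIs, at 2.35 and 7.61 CP10K, 3.23-fold higher (3.11 to 3.36). Rtp4, an interferon-induced chaperone, differed most, at 0.0943 and 0.581, and 2.08% and 11.6% of thinned Basal cells had a UMI. Isg15, the ubiquitin-like modifier, was at 0.457 and 1.16, and Bst2 (tetherin) at 0.401 and 1.09.

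Of 23 interferon-gamma induced genes, 11 passed the count minimum, with a median of 0.84. Of these, 10 were above 0, 9 had intervals apart and 4 were past the 2-fold line (backgrounds 51.9%, 6.69% and 0.556%). Cxcl9, a chemokine that draws activated T cells, was at 0.0498 and 0.36 CP10K. Its 548 UMIs in the BMT + T cells library lay in 51 cells, and its log2 difference of 2.04 became 0.85 without its highest 1% of cells. Iigp1, an immunity-related GTPase, was at 0.259 and 1.21, and Gbp2, a guanylate-binding protein, at 0.145 and 0.485. Irf1, an interferon-induced transcription factor, was at 0.0242 and 0.0355, with overlapping intervals. Cxcl10 had 0 and 6 Basal UMIs and was under the minimum. The 12 members under the minimum carry no count here.

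The promoters of these genes were searched for the core of 2 interferon response elements, because the genes move together. The searched words were GAAANNGAAA (interferon-stimulated response element, ISRE) and TTCNNNGAA (interferon-gamma activated site, GAS), on both strands, from 250 bases before to 50 after the RefSeq start (GRCm38.p6). Of the 59 higher genes 46 had a promoter in the table, and 15 of these (32.6%) held the ISRE word, against 295 of 8325 tested genes (3.54%) and 3.44% of all 32851 promoters. The GAS word was in 4 of the 46 (8.70%), against 7.90% of tested genes and 8.30% of all promoters. The counts by list cover all members with a promoter, whether or not they were tested or past the 2-fold line. ISRE words lay in 11 of 14 interferon-gamma, 9 of 16 antiviral, 5 of 16 MHC class I and 0 of 12 injury promoters. GAS words lay in 7 (50%), 3 (18.75%), 1 (6.25%) and 0 of the same promoters. Of the genes over 2-fold lower, 0 of 4 promoters held the ISRE word and 1 held the GAS word. Of the class I light chain and 3 interferon-stimulated genes with matches, the 250 bases before the start are shown 5′ to 3′ in gene direction, with matches in capitals.
B2m: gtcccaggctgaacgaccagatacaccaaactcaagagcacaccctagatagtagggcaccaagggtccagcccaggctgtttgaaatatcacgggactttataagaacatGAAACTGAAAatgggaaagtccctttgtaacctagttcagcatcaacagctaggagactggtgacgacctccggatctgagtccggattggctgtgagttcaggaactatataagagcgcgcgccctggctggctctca
Gbp2: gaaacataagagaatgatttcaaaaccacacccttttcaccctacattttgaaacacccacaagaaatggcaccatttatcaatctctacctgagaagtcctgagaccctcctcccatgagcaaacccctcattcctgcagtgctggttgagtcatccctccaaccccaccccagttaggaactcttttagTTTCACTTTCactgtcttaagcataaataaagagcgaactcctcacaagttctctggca
Isg15: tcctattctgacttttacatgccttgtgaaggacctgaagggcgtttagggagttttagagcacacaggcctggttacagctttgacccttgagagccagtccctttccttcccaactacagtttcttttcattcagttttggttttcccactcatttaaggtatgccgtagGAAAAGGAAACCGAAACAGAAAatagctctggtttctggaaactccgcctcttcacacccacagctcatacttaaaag
Bst2: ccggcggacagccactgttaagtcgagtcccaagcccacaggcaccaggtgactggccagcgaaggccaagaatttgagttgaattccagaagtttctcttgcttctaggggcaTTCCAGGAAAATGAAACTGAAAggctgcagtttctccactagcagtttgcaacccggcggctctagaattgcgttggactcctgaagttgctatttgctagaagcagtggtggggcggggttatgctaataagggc
These are chr2:122147437-122147686 on the plus strand (B2m), chr3:142620413-142620662 on the plus strand (Gbp2), chr4:156200819-156201068 on the minus strand (Isg15) and chr8:71537473-71537722 on the minus strand (Bst2). Isg15 holds 3 overlapping ISRE words, the first from base -78 counted from the start base, Bst2 holds 2 that overlap, from -130, and a GAS word from -136 that overlaps the first. B2m and Gbp2 hold 1 ISRE word each, from -139 and -59. A match describes the letters and is not a binding site, and a window without one says nothing of the factor.

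MHC class II genes, which show peptides to CD4 T cells and are at low levels in resting keratinocytes, had the largest median of the 18 lists. Of 9 genes, 6 were tested, and all 6 were past the 2-fold line (background 0.556%), with a median of 1.99. Cd74, the invariant chain, was at 0.306 and 2.24 CP10K, 7.31-fold higher (6.63 to 8.08). H2-Ab1, a class II β chain, was at 0.0916 and 0.791, H2-Aa at 0.119 and 0.628, and H2-Eb1 at 0.242 and 1.11. Ctss, the protease that trims the invariant chain, had 4 and 9 UMIs and was under the minimum, as were H2-Oa and H2-Ob.

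Class II differed from class I in how it was spread. After thinning, 3.15% and 12.7% of Basal cells had a UMI of Cd74 (5.52% and 19.3% before). A set of Cd74-rich cells was defined after the values were seen, by at least 3 thinned UMIs: 12 Basal cells in the BMT library (0.713%, interval 0.369 to 1.24) and 92 in the BMT + T cells library (5.37%, 4.35 to 6.55). This is a range of a continuous measure, since 41 and 126 further cells had 1 or 2 UMIs and 7 and 38 of those inside had 3 or 4. The 92 cells held 77.6% of the Cd74 UMIs of their library, and outside them Cd74 was still at 0.146 and 0.536 CP10K.

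Within the Cd74-rich cells Cd74 was at 25.4 and 26.9 CP10K, a level that the choice of cells sets. H2-K1 was at 27.8 and 27.5 in them. B2m was at 3.29 (2.24 to 4.67) and 5.24 (4.80 to 5.72), and Iigp1 was lower in the BMT + T cells library, at 11.8 (9.69 to 14.2) and 3.46 (3.10 to 3.85), with intervals apart for both genes. Of the Cxcl9 UMIs of the BMT + T cells library, 80.3% lay in the 92 cells. Outside them H2-K1 was at 9.90 and 18.5, so the class I difference was present in cells with little Cd74. Krt14 was at 396 and 400 in the Cd74-rich cells, as in other Basal cells. Ptprc (CD45) and Cd207 (langerin) had 0 UMIs in them in both libraries, which allows up to 3 UMIs. Tyrobp and Fcer1g had 6 and 14 UMIs in the 92 cells, and Lyz2 had 15, all in 1 cell. Krt15 was at 22.9 in the 92 cells and 50.2 in the other Basal cells of that library, and at 37.4 and 45.1 in the BMT library.

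Injury keratins and alarmins gave a different picture. Of 18 genes, 12 were tested, with a median of 1.04. Of these, 11 were above 0, 10 had intervals apart and 6 were past the 2-fold line (backgrounds 51.9%, 6.69% and 0.556%). Krt6a (chromosome 15, 101689928 to 101694305) was at 0.365 and 1.93 CP10K, Krt16, its partner keratin, at 0.45 and 2.13, and Krt6b at 0.0162 and 0.382. Krt6a and Krt6b are close in sequence, so their split is uncertain. Sprr1b, a cornified envelope protein, was at 0.0296 and 0.419, and S100a9 at 0.19 and 1.16. Outside the list, Fabp5, a fatty acid binding protein of hyperplastic epidermis, was at 0.38 and 2.29, Areg, an EGF receptor ligand, had 13 and 313 UMIs, and Gjb2 (connexin 26) 7 and 302.

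These UMIs sat in few cells. Krt6a-rich cells, defined after the values were seen by at least 3 thinned UMIs, were 10 of 1684 Basal cells (0.594%, 0.285 to 1.09) and 21 of 1712 (1.23%, 0.761 to 1.87), intervals that overlap, with 20 and 25 further cells at 1 or 2 UMIs and 3 and 3 inside at 3 or 4. In the BMT + T cells library the 21 cells held 95.3% of the Krt6a, 93.1% of the Krt16, 99.1% of the Krt6b, 98.4% of the Areg, 98.7% of the Gjb2 and 84.3% of the Fabp5 UMIs. They held 2.70% of the Krt14 and 1.08% of the H2-K1 UMIs. Their median depth was 14169 UMIs against 8206 in the rest, Krt15 was at 0.817 CP10K against 49.6, and H2-K1 at 8.53 against 19.3.

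A single cell of 44307 UMIs, the deepest Basal cell of that library, held 529 of the 581 Krt6b, 561 of the 637 Sprr1b, 1759 of the 3233 Krt16 and 1350 of the 3475 Fabp5 UMIs. Whether it was 1 cell was not tested. Without the Krt6a-rich cells of both libraries the log2 difference of Krt6a, the gene that chose them, was -0.20 and that of Krt16 -0.75. The list median was then -0.20 over 9 tested genes in place of 12, while S100a9 was still past the 2-fold line at 1.23. Without its own highest 1% of Basal cells instead, S100a9 was at 0.83. Over all genes, 49 were over 2-fold higher and 6 lower without the Krt6a-rich cells. The number of such cells has no replicate check.

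Most of the Il1b and part of the S100a9 UMIs also lay in few cells. In the BMT + T cells library 2 Basal cells held 113 of 120 Il1b, 163 of 170 Cxcl2, 86 of 90 Srgn, 404 of 1756 S100a9, 3 of 5 Csf3r and 19 of 32 Tyrobp UMIs. These are transcripts of neutrophils and other myeloid cells, and the same 2 cells also held 910 Krt14 UMIs. Whether each was 1 cell was not tested. Of the 59 higher genes, 48 were still past the 2-fold line without each gene's highest Basal cell and 38 without its highest 1% of cells, as were all 6 lower genes in both settings.

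**Figure D3:**
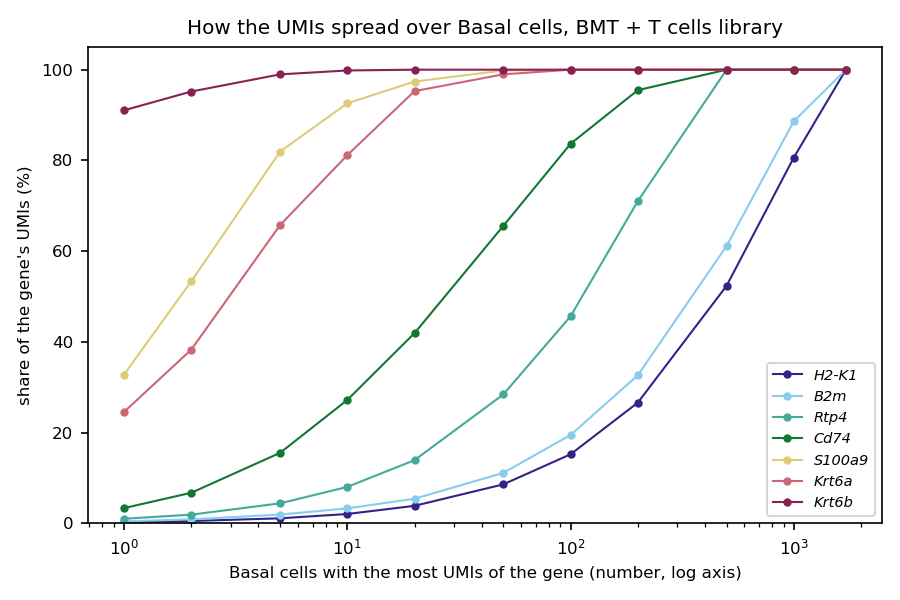
Share of a gene's UMIs (y, percent) held by the Basal cells of the BMT + T cells library with the most of them (x, number of cells, log axis). The 10 highest cells hold 99.8% of Krt6b, 81.2% of Krt6a and 92.6% of S100a9 UMIs, while the 100 highest hold 83.7% of Cd74, 45.6% of Rtp4, 19.5% of B2m and 15.2% of H2-K1 UMIs.

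Genes over 2-fold lower in the BMT + T cells library were few and led by Pyy, the gut hormone peptide YY (chromosome 11, 102106676 to 102107832). It had 4045 and 227 Basal UMIs, or 2.72 and 0.149 CP10K (log2 -3.80), and 10.5% and 1.46% of thinned Basal cells had a UMI. The other clusters had -3.77, -3.52, -4.51 and -3.37 (Differentiated, Follicular, KC_Four, KC_Five), so the whole library differed and not only its Basal cells. Sprr2a3, of the small proline-rich family, was at 1.91 and 0.411, and the gasdermins Gsdmc2 (log2 -1.84) and Gsdmc (-1.41) were also lower. Members of these 2 families are close in sequence and their split is uncertain. Itih5 (-1.12) and Fgfbp3 (-1.04), which frees fibroblast growth factors from the matrix, complete the 6.

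The other 4 of the 10 largest lower differences lay under 2-fold. Clca3a2 was at 10.6 and 5.97 CP10K, Ccl27a, the chemokine of skin-homing T cells, at 2.96 and 1.70, and Mill1 (log2 -0.87) and Ddah1 (-0.78) at lower levels. Ccl27a was lower in Differentiated cells too (-1.09) and higher in Follicular cells (0.46).

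The genes that define the layer were near level between the labels. Of 20 tested basal keratin and basement membrane genes, 15 were above 0 (51.9% of all genes were) and none was past the 2-fold line. Their median was 0.10, and Krt15 was at 45.1 and 48.5 CP10K. The 13 suprabasal genes had a median of 0.05, with Krt10 at 0.52, and the 14 follicle genes -0.02. Transcription factors leaned higher, 18 of 19 above 0 (51.9% of all genes) and 9 with intervals apart (6.69%), with a median of 0.17. Klf4, a factor of terminal differentiation, was at 4.31 and 5.62, and Id1 and Id3, targets of bone morphogenetic proteins, were at 2.45 and 3.27 and at 0.512 and 0.749.

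Signals from Basal cells differed little. The Notch list had a median of 0.07 (16 genes, 11 above 0), with Jag2 at 0.24 and Jag1 at 0.06. The Wnt list had 0.01 (19 genes, 10 above 0), and 51.9% of all genes were above 0. The growth factor list had a median of 0.12, and after Areg its largest difference was in Hbegf, a second EGF receptor ligand, at 0.118 and 0.264 CP10K. Junction genes had a median of 0.07, with Gjb2 alone past the 2-fold line.

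The Langerhans cell niche list had a median of 0.04 over 17 tested genes. Above 0 were 9 (51.9% of all genes), 5 of them with intervals apart (6.69%). Below were 8 (48.1%), 4 of them apart (8.53%). Cxcl14 was lower, at 6.42 and 3.93 CP10K (0.612-fold, 0.592 to 0.632), as was Tslp, the alarm cytokine of epithelia, at 0.434 and 0.314, and the adhesion molecule Epcam at 0.704 and 0.48. Csf1, a growth factor of macrophages, was higher at 0.0903 and 0.138. Il34, at 0.919 and 1.01, had overlapping intervals, and so did Bmp7 at 0.316 and 0.282. Only Il1b was past the 2-fold line, through the 2 cells described above.

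T cell facing surface and death genes had a median of 0.05 over 11 tested genes of 17. Only Lgals9 (galectin 9) had intervals apart, at 0.723 and 1.18 CP10K (6.69% of all genes were higher with intervals apart). Cd274 (PD-L1) had 13 and 31 UMIs and was under the minimum. The 16 tested p53 targets had a median of -0.03, with Cdkn1a, the cell cycle inhibitor p21, at 1.46 and 1.42. Immediate early and heat shock genes leaned higher, 16 of 17 above 0 (51.9% of all genes) and 12 with intervals apart (6.69%), with a median of 0.40. Fos, a subunit of the AP-1 factor, was at 0.667 and 1.59, and Dusp1, a phosphatase of MAP kinases, at 0.465 and 1.05.

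Cell cycle genes were lower, 20 of 21 below 0 (background 48.1%) and 18 of these with intervals apart (8.53%), with a median of -0.39 and none past the 2-fold line. Cdk1 was at 0.526 and 0.324 CP10K and Mki67 at 0.658 and 0.508, while the D-type cyclin Ccnd2 was at 4.17 and 4.75. The share of Basal cells called G1 moved with them, as given above. Over cells called G1 alone the median of the list was 0.04, over 16 tested genes in place of 21. Phases are called from cell cycle genes, so that value is partly set by the choice of cells.

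**Figure D4:**
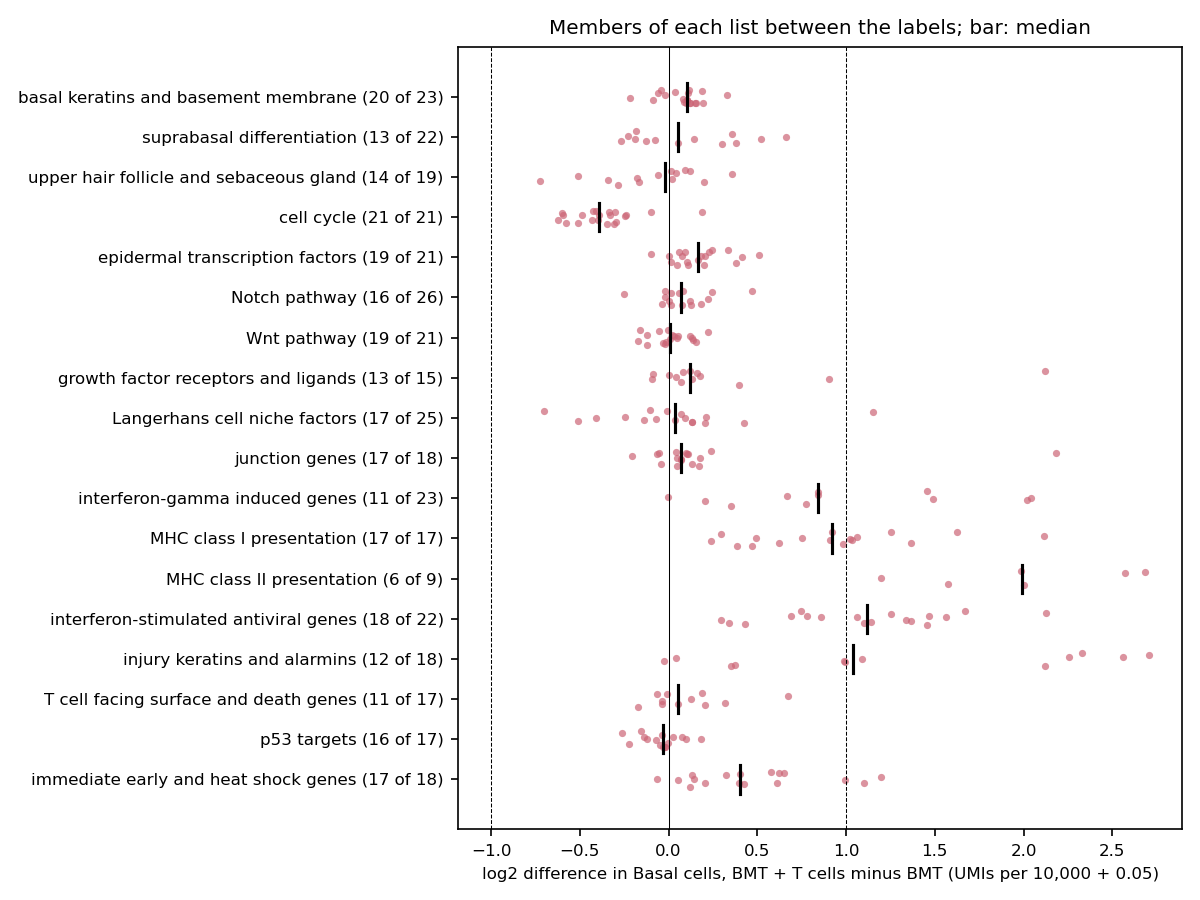
Log2 difference in Basal cells (x, BMT + T cells minus BMT, on CP10K + 0.05) of each tested member of 18 gene lists, 1 point a gene, black bar the median. Brackets give tested members of all members, and dashed lines a 2-fold difference. MHC class I and II and antiviral genes lie wholly to the right of 0, cell cycle genes almost wholly to the left.

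Presentation and interferon genes were higher in the other clusters too. Medians of the MHC class I list in Differentiated, Follicular, KC_Four and KC_Five cells were 0.83, 0.90, 0.87 and 0.78, beside 0.92 in Basal cells. For class II they were 1.77, 0.93, 1.53 and 1.79, beside 1.99, and for antiviral genes 0.47, 0.67, 1.22 and 0.98, beside 1.12. The interferon-gamma list had 0.45, 0.45, 0.94 and 0.78, beside 0.84. The injury list had 0.07, -0.26, -0.20 and -0.30 beside 1.04 in Basal cells. In every cluster the members were those with at least 50 Basal UMIs, so Basal counts chose the genes. Some injury genes passed that minimum through few Basal cells. For Krt6b, 529 of the 581 Basal UMIs of the BMT + T cells library lay in 1 cell. Without Krt6a-rich cells the Basal injury median was -0.20 over 9 tested genes. The cell cycle list had -0.04, -0.39, -0.01 and -0.14 beside -0.39 in Basal cells, so Follicular cells had a like median. With 1 library a label, whether any of these lists differ between clusters was not tested.

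**Figure D5:**
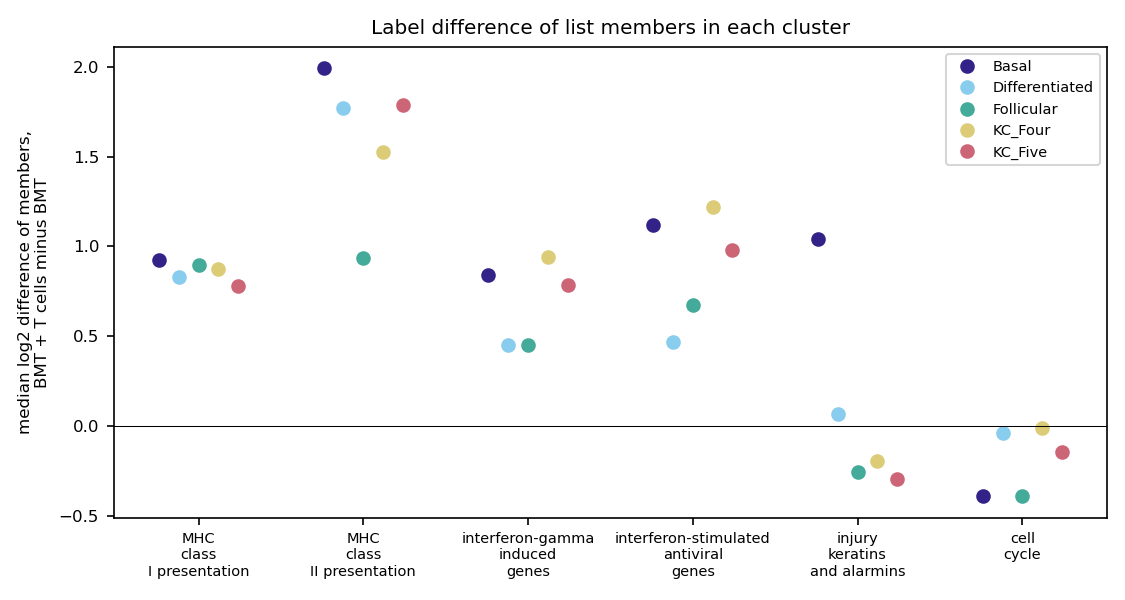
Median log2 difference between the labels (y, BMT + T cells minus BMT) of the tested members of 6 gene lists (x) in each keratinocyte cluster, 1 colour a cluster. In all clusters the members are those with enough UMIs in Basal cells. MHC class I stands at 0.78 to 0.92 in all 5 clusters, and the injury list at 1.04 in Basal cells and between -0.30 and 0.07 elsewhere. Without Krt6a-rich cells the Basal injury median was -0.20 over 9 tested genes.

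Markers of other cell types were near 0 in Basal cells. None of the 9 leukocyte markers reached the count minimum, and their summed level was 0.0128 and 0.0789 CP10K, higher in the BMT + T cells library. Ptprc had 0 and 3 UMIs, Cd3e 2 and 2, and Cd207 1 and 1, while Tyrobp had 2 and 32 and Fcer1g 5 and 37. Summed levels of 5 melanocyte markers were 0.0714 and 0.0362, of 5 fibroblast markers 0.0303 and 0.0178, of 4 Merkel cell markers 0.00202 and 0.00197, and of 4 endothelial markers 0.0141 and 0.0151. The part of these cells in the label differences was not tested.

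The labels and the libraries cannot be told apart, and mice within a library were not separated. Genes at a few hundredths of a CP10K are pulled towards 0 by the added 0.05, so their log2 differences are smaller than the ratios of their counts.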

How the data were processed

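Keratinocyte RNA was sequenced from 5' droplet libraries. The submitters' processing notes name kallisto, bustools, Seurat and GRCm38. The authors removed cells under 500 genes or above 20% mitochondrial UMIs, removed doublets with DoubletFinder and named Leiden clusters. None of these steps was repeated. The deposited expression values were natural log values of 1 plus UMIs per 10000, with the mitochondrial share deposited in percent and each deposited cell cycle column a score. Undoing the log gave whole UMIs for 100% of 15311900 values (tolerance 0.001), so UMI counts were recovered. No column was left without a sample (0). Donor and host tables were not used here, except for cell numbers.

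UMIs were summed per library and cluster and compared as log2(CP10K + 0.05). Genes needed 50 UMIs. A difference was counted past the line at a log2 difference of 1. Exact Poisson and Clopper-Pearson intervals are at 95%, and a count of 0 allows up to 3 (one-sided). Cells were thinned to 2500 UMIs with a fixed seed, and none was shallower. Named genes are the markers, the 12 highest and 8 lowest against other clusters, the 15 highest and 10 lowest between labels with intervals apart, the 12 most variable, and list members by role. 1 gene that the rule names is not reported here. Members and lists were chosen with earlier results of these data known. The comparison was tested on simulated data. Alternatives covered the pseudocount, the filter, thinning, scaling and cell subsets. Promoters and positions came from RefSeq (GRCm38.p6). Tables were computed in Python 3.11.15 with pandas 2.3.3, SciPy 1.17.1 and NumPy 2.4.6, and plots drawn with matplotlib 3.10.9.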

Additional observations from a re-analysis of the deposited data

How the results depend on the processing

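No paired analysis was possible because each label has 1 keratinocyte library, and for the same reason no library could be left out. The 2 genes higher in Basal cells than in every other cluster became 0 with a pseudocount of 1, 6 with 0.01, 0 with thinned cells, and 1 with the mean over cells, without the deepest 5% of cells, or with median-of-ratios scaling. They were 6 in the BMT library alone and 17 in the BMT + T cells library alone. The 1 gene lower than in every other cluster became 0 with a pseudocount of 1, 4 with 0.01 and 0 with thinned cells. Between the labels, the 59 higher genes became 5 with a pseudocount of 1, 91 with 0.01 and 37 with thinned cells, and the 6 lower genes 2 and 15 with pseudocounts of 1 and 0.01. The median of the interferon-gamma list (0.84) became 0.17 and 1.29 with these pseudocounts, 0.16 with no filter, 1.46 with at least 200 UMIs and 1.61 with thinned cells. With a pseudocount of 1 the MHC class I median (0.92) became 0.49, the class II median (1.99) 0.63 and the antiviral median (1.12) 0.17. The injury median (1.04) ranged over the planned settings from 0.15 without the deepest 5% of cells (11 genes tested) to 1.61 with at least 200 UMIs (10 genes). Without KC_Four and KC_Five, Basal cells were 68.6% and 73.7% of the libraries. Other settings were chosen after seeing the data. Without each gene's highest Basal cell and without its highest 1%, the 2 genes higher than in every other cluster became 1 and 0, and with the latter the 1 lower gene became 3. Over G1 cells alone, themselves called from cell cycle genes, the cell cycle median turned to 0.036 over 16 genes. Without each gene's highest 1% of cells the injury median became 0.027 and Cxcl9 (2.04) 0.85. Without Krt6a-rich cells the injury median turned to -0.20 over 9 genes, Krt6a to -0.20, Areg to -0.11, Krt16 to -0.75, Fabp5 to -0.00078 and Gjb2 to -0.00059. For 25 genes named between the labels and 12 settings, these 5 values reversed, 63 moved by over 1.5 times and 232 did not.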

Other observations

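Genes of sterol synthesis and its regulation were looked at after Fdft1 had been seen as the lowest gene of Basal cells, so the list was chosen after its values were seen and carries no test. It holds 21 genes, 20 with at least 50 keratinocyte UMIs, and 12 of these were below every other cluster in both libraries, beside 257 (2.2%) of all 11686 genes. Their summed level was 8.75 CP10K in Basal cells of the BMT library and 8.20 in those of the BMT + T cells library, against 17.2 and 14.98 in Differentiated, 17.0 and 12.5 in Follicular, 11.1 and 9.30 in KC_Four and 20.02 and 17.2 in KC_Five cells. Over 2-fold lower in Basal cells in both libraries were 6 genes against Differentiated (2.2% of all genes) and 9 against Follicular cells (4.49%). Against KC_Four 2 were lower (3.46%) and against KC_Five 9 (1.85%). None was over 2-fold higher against any cluster. Sqle, squalene epoxidase, was at 0.167 and 0.168 CP10K, against 0.698 and 0.554 in Differentiated and 0.804 and 0.672 in KC_Five cells. Idi1, an isomerase that makes building blocks of sterols, was at 0.487 and 0.392, against 1.35 and 0.915 in Follicular cells. Between the labels no gene of the list was past the 2-fold line, with a median of -0.10 over 19 tested genes.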
